A study of Mus musculus with 21 samples.

Results

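The sequences described here are the 8-mers that hold at least 1 G and no C on the strand synthesised on the array, and so no cytosine that could be modified. They were chosen from sequence alone, with no measured value. They number 6305 of the 65535 8-mers scored, or 9.62%. By their number of G, 1024 held 1 G, 1792 held 2, 1792 held 3, 1120 held 4, 448 held 5, 112 held 6, 16 held 7 and 1 held 8. The cytosines opposite their G lay on the printed strand, which is taken here as the unmodified template. The 8 base pairs of such a sequence were then the same DNA on every array, and a modified base could lie only in the other 27 of the 35 variable bases of a probe. Probes that carried at least 1 of these 8-mers numbered 25819 of 40330 and held a median of 7 cytosines on the synthesised strand, with a range of 0 to 16. Each G-containing, C-free 8-mer was carried by 9 to 40 probes, with a median of 18.

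The proteins were DNA-binding domains of 2 mouse basic leucine zipper (bZIP) factors and of 1 mutant of each: CEBPB(V285A), CREB1(A297V), CEBPB and CREB1. They carried an N-terminal GST tag and were made by in vitro transcription and translation, and the mutants were made by site-directed mutagenesis of the wild-type constructs. Arrays of single-stranded probes were made double-stranded with 5-hydroxymethylcytosine (5hmC), 5-methylcytosine (5mC) or cytosine (C), so that only the synthesised strand carried the modified base. With 5hmC there were 2 arrays of CEBPB(V285A), 4 of CREB1(A297V), 2 of CEBPB and 2 of CREB1. With 5mC there were 2 arrays of CEBPB(V285A), 2 of CREB1(A297V) and 1 of CREB1, and with C there were 2 arrays of each of these 3 proteins. All groups share the isolated domain as a model: the rest of each protein, partner proteins and chromatin are absent.

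A bZIP protein binds DNA as a dimer, and each basic region reads one side of a short, roughly symmetric site. CREB1 is known for the cyclic AMP response element, built from the element GTCA and its reverse complement TGAC. CEBPB, a CCAAT/enhancer binding protein, is known for sites built from GCAA, and the PAR bZIP factors for sites built from GTAA with its reverse complement TTAC. A site with an element on each strand usually holds a cytosine, and often a central CG. The 8-mers with G but no C can hold a complete GTAA, but no complete element of CREB1 or CEBPB and no complete TTAC, since each of these holds a C. The mutations exchange valine and alanine in opposite directions at a residue of the basic region.

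The sequences below are shown because the comparisons turn on them. They are written 5′ to 3′ on the synthesised strand. Capitals mark the PAR element GTAA or the run TGATG. The first set is the 9 8-mers that end in GTAA and begin with TTA, TGA or TTG followed by A, G or T. They are sites with a GTAA side and a side that differs from TTAC, TGAC or TTGC only in having another base in place of the last C.
TTA with T: ttatGTAA
TTA with G: ttagGTAA
TTA with A: ttaaGTAA
TGA with T: tgatGTAA
TGA with G: tgagGTAA
TGA with A: tgaaGTAA
TTG with T: ttgtGTAA
TTG with G: ttggGTAA
TTG with A: ttgaGTAA
The next set is 4 TGATG-containing 8-mers with large differences in CREB1 between 5hmC and C, followed by purine-only 8-mers (A and G alone) with large differences in the opposite direction.
TGATG between g and ta: gTGATGta
TGATG between a and at: aTGATGat
TGATG between ta and t: taTGATGt
TGATG after taa: taaTGATG
A and G, with 3 G: aagaaagg
A and G, with 1 G: aaaaagaa
A and G, with 2 G: aaaaggaa
The reverse complement of each is the same base pairs in the other orientation, with the cytosines on the synthesised strand. For ttatGTAA it is TTACataa, for tgatGTAA TTACatca, for ttgtGTAA TTACacaa and for gTGATGta taCATCAc. The first set overlaps the second: tgatGTAA holds both runs, and gTGATGta shares probes with it.

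Values are the deposited Z-scores, which place an 8-mer against the other 8-mers of the same array. They measure relative preference within an array and not affinity, so an 8-mer can move because others moved. Their range differed between arrays: the highest Z-score was 15.7 on CREB1(A297V) 5hmC replicate 1 and 255.8 on CEBPB(V285A) 5mC replicate 1. The size of a difference, above all between proteins, depends on this range as well. Called means a Benjamini-Hochberg adjusted p under 0.05 in limma over all 8-mers, and the percentage after the word beside is the share of all 65535 8-mers called in that comparison. The deposited array names hold 6 different numbers, without a statement of what the number is. Arrays that share a number are called a run here, which is an assumption. CREB1 and CREB1(A297V) with C and with 5mC shared run 470 with CREB1(A297V) 5hmC replicates 1 and 2. CEBPB and CREB1 with 5hmC lay in run 535, CEBPB(V285A) 5hmC and CREB1(A297V) 5hmC replicate 4 in run 534, CEBPB(V285A) 5mC in run 458, CEBPB(V285A) C in run 457 and CREB1(A297V) 5hmC replicate 3 in run 492. Run and group therefore cannot be told apart for CEBPB(V285A) in any comparison, for CEBPB, for CREB1 5hmC against CREB1 C, or for CREB1(A297V) 5hmC against CREB1 5hmC, which share no run. Median probe signal ranged from 0.96 times local background on CREB1(A297V) 5hmC replicate 2, where 56.06% of probes were not above background, to 5.85 times on CREB1 5hmC replicate 2.

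As a whole, the G-containing, C-free 8-mers stood slightly above the array median in every group. Their median Z-score, as the mean of array medians, was 0.54 ± 0.098 for CEBPB(V285A) with 5hmC, 0.24 ± 0.001 with 5mC and 0.27 ± 0.023 with C (SD, n = 2 each). For CREB1(A297V) it was 0.42 ± 0.087 with 5hmC (SD, n = 4), 0.23 ± 0.141 with 5mC and 0.59 ± 0.152 with C (SD, n = 2 each). For CEBPB with 5hmC it was 0.54 ± 0.01 and for CREB1 with 5hmC 0.34 ± 0.03, against 0.37 ± 0.114 for CREB1 with C (SD, n = 2 each), and the single CREB1 5mC array had 0.07. Sequences with 1 G had higher medians than those with 5 G. With 1 G the median was 1.47 ± 0.177 for CEBPB(V285A) 5hmC, 1.1 ± 0.241 for CREB1(A297V) 5hmC, 1.33 ± 0.136 for CEBPB 5hmC and 0.89 ± 0.027 for CREB1 5hmC, and with 5 G it lay between -0.73 and -0.15 in all 10 groups. The 8-mers of A and T only, which are not among those described here, had medians of 0.44 to 1.94.

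The 404 sequences with GTAA stood higher than the whole in every group. Their median was 2.29 ± 0.4 for CEBPB(V285A) 5hmC, against 1.12 ± 0.014 with 5mC and 1.16 ± 0.03 with C. For CREB1(A297V) it was 2.13 ± 0.497 with 5hmC, 2.34 ± 0.075 with 5mC and 2.22 ± 0.084 with C, so the 3 forms lay within the spread between arrays. For CEBPB 5hmC it was 1.26 ± 0.095, and for CREB1 it was 1.38 ± 0.036 with 5hmC, 0.8 on the 5mC array and 1.07 ± 0.183 with C. The base before GTAA separated the groups further. With T before it (TGTAA, 108 sequences) the median was 4.79 ± 1.006 for CEBPB(V285A) 5hmC, against 1.89 ± 0.032 with C, and 2.92 ± 0.095 for CREB1 5hmC, against 1.02 ± 0.033 with C. With A before it (AGTAA, 108 sequences) it was 1.25 ± 0.51 for CEBPB(V285A) 5hmC, against 1.06 ± 0.081 with C, and 0.71 ± 0.052 for CREB1 5hmC, against 1.3 ± 0.369 with C. The place of GTAA in the 8-mer gave similar medians: on CEBPB(V285A) 5hmC arrays the medians for a start at base 1, 2, 3, 4 and 5 were 2.28, 2.19, 2.18, 2.15 and 2.47.

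The G-containing, C-free 8-mers were 9.62% of all 8-mers scored, and the counts of 9, 11 and 13 below lie near that share. Among the 100 highest 8-mers of a group, sequences with G and no C were most frequent for CREB1(A297V) with 5hmC. There they numbered 36, of which 34 held GTAA, against 11 with 5mC, all with GTAA, and 16 with C, of which 14 held GTAA. For CEBPB(V285A) they numbered 22 with 5hmC, of which 16 held GTAA, 0 with 5mC and 1 with C. CEBPB 5hmC had 13, 9 of them with GTAA. CREB1 had 9 with 5hmC, all with TGATG, and 0 with 5mC and 0 with C, where the highest, aaaaagaa, was 370th. The highest of them was 2nd of all 8-mers on CEBPB(V285A) 5hmC arrays (ttatGTAA), 3rd for CREB1(A297V) 5hmC (ttagGTAA), 18th for CEBPB 5hmC (ttgtgaaa) and 38th for CREB1 5hmC (gTGATGta).

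The site ttatGTAA was the strongest of the 9 listed for CEBPB(V285A) in every form. Its Z-score was 205.2 and 111.5 on the 2 CEBPB(V285A) 5hmC arrays, 35.7 and 34.6 with 5mC, and 41.7 and 35.0 with C. The 5hmC arrays did not overlap the others, and they differed widely from each other. The highest Z-score of any 8-mer differed alike between these arrays, at 227.7 and 125.3. The difference from C was 120.0 (SE 19.2, adjusted p = 0.00116), and it was 73.2 without CEBPB(V285A) 5hmC replicate 1. With CREB1(A297V) 5hmC the values were 10.4, 18.9, 11.4 and 15.8, against 6.4 and 8.45 with C. CEBPB 5hmC had 11.4 on both arrays, and CREB1 5hmC had 10.6 and 11.1, against 2.52 and 2.82 for CREB1 C. The difference was called for CEBPB(V285A) and not for CREB1(A297V) (6.66, SE 16.6) or CREB1 (8.21, SE 19.2). The fit shares the spread of an 8-mer over all groups, so the spread of the CEBPB(V285A) 5hmC arrays (SD 66.2) enters these SEs. In CREB1(A297V) and in CREB1 the 5hmC arrays did not overlap those with C, which can happen without an effect when arrays are so few. With SEs this wide, the missing calls show neither an effect of 5hmC there nor its absence. In rank over all 8-mers, ttatGTAA was 2nd for CEBPB(V285A) 5hmC, 118th with 5mC and 79th with C.

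The site tgatGTAA, which joins the C-less form of the CREB1 side to GTAA, was high with 5hmC for both CEBPB(V285A) and CREB1. CREB1 5hmC gave 28.3 and 23.8, against 3.79 and 5.75 for CREB1 C, and the CREB1 5mC array gave 4.8. The groups did not overlap, and the 5hmC difference was 21.3 (SE 3.98, adjusted p = 0.00579), or 20.3 (adjusted p = 0.0523) without CREB1 C replicate 1 and 19.0 (adjusted p = 0.0638) without CREB1 5hmC replicate 1. CEBPB(V285A) gave 49.8 and 38.5 with 5hmC, 13.3 and 21.4 with 5mC, and 30.0 and 29.4 with C. Its difference from C was 14.5 (SE 3.98, adjusted p = 0.0415), and the adjusted p was 0.144 and 0.137 without CEBPB(V285A) C replicate 1 or 2 and 0.194 without CEBPB(V285A) 5hmC replicate 1. CREB1(A297V) 5hmC gave 7.19, 9.49, 5.85 and 8.15, against 7.48 and 7.03 with C, and CEBPB 5hmC gave 2.7 and 4.42.

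The site ttgtGTAA, with the C-less form of the CEBPB side, was called for CEBPB(V285A) with the closest replicates. Its Z-score was 27.1 and 27.7 with 5hmC, 6.45 and 9.02 with 5mC, and 6.34 and 6.36 with C. The 5hmC arrays lay well above the others of this protein, with a difference from C of 21.0 (SE 2.05, adjusted p = 1.59e-05). CEBPB 5hmC gave 8.73 and 13.8 and CREB1 5hmC 3.37 and 3.58, against 0.68 and 0.487 for CREB1 C. The order of the sites differed for CREB1(A297V). ttagGTAA was its highest of the 9 with 5hmC and with C, at 14.2, 25.4, 16.9 and 14.5 with 5hmC, 7.66 and 14.6 with 5mC, and 11.9 and 14.1 with C. The 5hmC arrays lay just above the C arrays and the 5mC arrays overlapped both, and neither difference from C was called (4.72, SE 2.8, adjusted p = 0.437 for 5hmC). tgagGTAA gave 9.45 and 12.9 with 5mC, which overlapped ttagGTAA, and was 13th of all 8-mers for CREB1(A297V) 5hmC at 10.4, 14.0, 16.7 and 7.06, and CREB1 gave 11.5 and 11.7 with 5hmC, against 3.14 and 2.69 with C, which was not called.

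The sites with A before GTAA and the site ttggGTAA were the lowest of the 9 for CEBPB(V285A) 5hmC, an order that did not hold with C. ttaaGTAA gave 8.87 and 11.3 for CEBPB(V285A) 5hmC, against 3.23 and 4.51 with C (difference 6.21, SE 1.08, adjusted p = 0.0023). ttggGTAA gave 8.66 and 9.76, against 3.26 and 3.78 (difference 5.69, SE 1.28, adjusted p = 0.0135), a call lost without CEBPB(V285A) C replicate 1 (adjusted p = 0.113) or replicate 2 (0.0623) and without CEBPB(V285A) 5hmC replicate 2 (0.0917). ttgaGTAA fell with 5mC, at 4.59 and 3.99, against 8.09 and 7.31 with C (difference -3.41, SE 0.874, adjusted p = 0.0293). That call was lost on leaving out any 1 of the 4 arrays, with differences of -3.02 to -3.79. With 5hmC ttgaGTAA gave 9.37 and 9.93. tgaaGTAA was the lowest of the 9 for CEBPB(V285A) 5hmC, at 5.28 and 1.04, arrays that overlapped those with C at 1.7 and 1.54.

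In CEBPB(V285A), most of the C-free 8-mers called between 5hmC and C were higher with 5hmC. Of the 6305, 381 rose and 16 fell, 6.3% in all beside 7.26% of all 8-mers (2.36% of all 8-mers rose and 4.9% fell). The total share was thus near the background and the direction of the calls was not. The median difference of the 6305 was 0.28, against 0.0 over all 8-mers. The median Z-score of each of these arrays was 0.0, so the value over all 8-mers follows largely from the scale. A rise here can mirror falls in other 8-mers. Without CEBPB(V285A) C replicate 1 or 2 the count was 123 or 156, and without CEBPB(V285A) 5hmC replicate 1 or 2 it was 270 or 357. In no called sequence did the 5hmC and C arrays overlap, but a call itself favours such sequences, so this is not separate support. By G number, 111 of those with 1 G rose and 2 fell, 157 and 4 with 2 G, 87 and 7 with 3 G, and 21 and 2 with 4 G.

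Sequences with GTAA were called at a higher share than those without it. Of the 404 sequences with GTAA, 91 rose and 0 fell (22.5%), with a median difference of 1.12, and of the 5901 without it 290 rose and 16 fell (5.19%), with a median of 0.25. The number with GTAA that rose was 37 or 45 without CEBPB(V285A) C replicate 1 or 2 and 55 or 91 without CEBPB(V285A) 5hmC replicate 1 or 2, with 0 falling in each. T before GTAA gave 50 of 108 (median difference 2.83), G gave 20 of 108 (1.08) and A gave 7 of 108 (0.43). The 50 were 23 or 27 without CEBPB(V285A) C replicate 1 or 2, 33 without CEBPB(V285A) 5hmC replicate 1 and 47 without replicate 2.

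Beyond the 9 listed sites, the largest rises in CEBPB(V285A) included 2 8-mers with GTAA and 1 without. gatGTAAt, which shares 7 bases in a row with tgatGTAA, gave 42.1 and 38.5 with 5hmC, against 9.73 and 9.43 with C (difference 30.7, SE 2.09, adjusted p = 6.37e-07). ataatagt gave 48.3 and 21.6, against 9.68 and 8.62 (difference 25.8, adjusted p = 0.00672), and GTAAgagt gave 38.7 and 16.6, against 6.26 and 6.66 (difference 21.2, adjusted p = 0.00874). The groups of each did not overlap, which was a condition for naming them and is not separate support. The call of ataatagt was lost without CEBPB(V285A) C replicate 1 (26.3, adjusted p = 0.0503) or 2 (25.3, 0.0513), and its difference was 12.5 without CEBPB(V285A) 5hmC replicate 1 and 39.1 without replicate 2. That of GTAAgagt was lost without C replicate 1 (0.0721) or 2 (0.0539), with differences of 10.2 and 32.3 without 5hmC replicate 1 and 2. The largest fall, in tggtgtgt at -0.385 and -0.584 against 2.86 and 2.04, was -2.94 (adjusted p = 0.00626), and it was lost without CEBPB(V285A) C replicate 1 (-2.53, adjusted p = 0.0935).

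Set against 5mC instead of C, CEBPB(V285A) with 5hmC shared its 5hmC arrays with the comparison above. Called were 380 sequences, 350 higher and 30 lower with 5hmC (6.03%, beside 5.71% of all 8-mers, 1.98% higher and 3.73% lower). Without CEBPB(V285A) 5mC replicate 1 or 2 the count was 173 or 184, and without 5hmC replicate 1 or 2 it was 243 or 321. Of the 404 with GTAA, 80 were higher and 0 lower, which became 46 and 53 without 5mC replicate 1 and 2, and 51 and 84 without 5hmC replicate 1 and 2. Of the 9 listed sites 6 were higher: by 123.2 for ttatGTAA (76.4 without CEBPB(V285A) 5hmC replicate 1), 26.8 for tgatGTAA, 19.7 for ttgtGTAA, 7.3 for ttggGTAA, 6.75 for ttaaGTAA and 5.35 for ttgaGTAA. Lower with 5hmC was attagttg, at 1.1 and 1.09, against 5.38 and 5.53 with 5mC (difference -4.36, SE 0.378, adjusted p = 4.19e-06).

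In CREB1, 5hmC moved C-free 8-mers in both directions. Against C, 471 rose and 466 fell, 14.9% of the 6305 beside 9.58% of all 8-mers (4.31% of all 8-mers rose and 5.27% fell), and the median difference was 0.02. Without CREB1 C replicate 1 or 2 the count was 253 or 304, and without CREB1 5hmC replicate 1 or 2 it was 216 or 210. The 2 directions held different sequences. Among the 471 that rose, 134 held TGAT, 78 held TGATG, 36 held TTAT and 22 held GTAA. Of all 6305, 404 held GTAA, so GTAA was not more frequent among those that rose. Among the 466 that fell, 133 consisted of A and G only and 0 held TGATG. These contents were chosen after the values were seen and are a description.

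The 107 sequences with TGATG had a median Z-score of 5.91 ± 0.474 with CREB1 5hmC, at 5.57 and 6.24 on its arrays, against 1.36 ± 0.005 with CREB1 C and 1.16 on the CREB1 5mC array. In CREB1, 78 rose with 5hmC and 0 fell, and the median difference was 4.7. Without CREB1 C replicate 1 or 2 the count was 64 or 66, and without CREB1 5hmC replicate 1 or 2 it was 64 or 63. gTGATGta gave 19.0 and 36.9, against 3.15 and 4.46 with C (difference 24.2, SE 3.62, adjusted p = 0.00154, and 15.2 without CREB1 5hmC replicate 2). aTGATGat gave 19.1 and 22.3, against 1.86 and 4.04 (difference 17.7, SE 1.12, adjusted p = 2.31e-06). taTGATGt gave 19.8 and 20.5, against 3.13 and 3.06 (difference 17.1, SE 1.38, adjusted p = 1.2e-05), and taaTGATG gave 13.8 and 17.8, against 1.81 and 2.06 (difference 13.9, adjusted p = 0.000276). In all 4 the arrays with 5hmC lay far above those with C, though non-overlap was a condition for naming them. No call of the 4 was lost on leaving out an array.

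The same 107 sequences were moderate or low elsewhere. Their median was 2.32 ± 0.256 for CEBPB(V285A) 5hmC, against 1.51 ± 0.087 with C, and 14 rose with a median difference of 0.81. That count was 1, 1, 6 and 11 without CEBPB(V285A) C replicate 1, C replicate 2, 5hmC replicate 1 and 5hmC replicate 2. For CREB1(A297V) the median was 0.5 ± 0.258 with 5hmC, against 0.63 ± 0.211 with C, and 0 of 107 were called. For CEBPB 5hmC it was 1.11 ± 0.427.

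The 255 sequences of A and G only moved in the opposite direction in CREB1. Their median was -1.28 ± 0.069 with 5hmC, 0.45 on the 5mC array and 0.76 ± 0.227 with C, and 133 fell with 5hmC and 0 rose (median difference -1.94). The count was 37 or 56 without CREB1 C replicate 1 or 2 and 33 or 32 without CREB1 5hmC replicate 1 or 2. aaaaggaa gave -1.3 and -0.768 with 5hmC, against 6.08 and 4.09 with C (difference -6.12, SE 1.03, adjusted p = 0.00307). aagaaagg gave -1.24 and -1.43, against 7.14 and 4.52 (difference -7.17, adjusted p = 0.00781), and aaaaagaa gave 1.05 and 0.568, against 8.36 and 6.8 (difference -6.77, adjusted p = 0.00583). The last 2 were among the 3 highest C-free 8-mers of CREB1 with C. The call of aagaaagg was lost without CREB1 C replicate 1 (-5.86, adjusted p = 0.0809), 5hmC replicate 1 (0.0606) or 5hmC replicate 2 (0.0665), and that of aaaaagaa without C replicate 1 (-5.99, 0.0581) or 5hmC replicate 2 (-6.53, 0.061). In the mutants the median of the 255 was also lower with 5hmC, with few calls. It was -0.42 ± 0.053 for CEBPB(V285A) 5hmC, against -0.13 ± 0.088 with C (SD, n = 2 each), with 0 called by limma. For CREB1(A297V) it was 0.24 ± 0.658 with 5hmC (SD, n = 4), against 1.23 ± 0.33 with C (SD, n = 2), with 2 that fell (0.784%, beside 0.343% of all 8-mers called), or 55 without CREB1(A297V) 5hmC replicate 1 and 0 without C replicate 1.

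In CREB1 the calls among sequences with GTAA went both ways. Their median was 1.36 and 1.41 on the 5hmC arrays, against 0.94 and 1.2 with C. Of 404, 22 rose and 15 fell with 5hmC, 14 and 1 where T preceded GTAA and 2 and 9 where A did. Both directions together, the 22 and 15 were a share near the 9.58% of all 8-mers called, so GTAA did not stand out in number. Without CREB1 C replicate 1 or 2 the counts were 4 and 1 or 6 and 4, and without 5hmC replicate 1 or 2 they were 2 and 1 or 4 and 1. The lists of risen sequences of CREB1 and CEBPB(V285A) with 5hmC shared 90 sequences, 19.1% of CREB1's and 23.6% of CEBPB(V285A)'s. Of all 6305, 471 rose in CREB1 and 381 in CEBPB(V285A). The overlap among all 8-mers was not counted. A further 3 fell in CREB1 and rose in CEBPB(V285A), and 1 did the reverse.

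With 5mC few C-free 8-mers were called. CEBPB(V285A) had 59 that rose and 19 that fell, 1.24% beside 6.5% of all 8-mers (3.01% rose and 3.49% fell), a share below the background. The count was 29 or 27 without CEBPB(V285A) C replicate 1 or 2 and 54 or 45 without 5mC replicate 1 or 2. tagttatg gave 9.32 and 9.99 with 5mC, against 3.72 and 3.41 with C (difference 6.1, SE 0.784, adjusted p = 0.000121). GTAAtatt gave 12.9 and 19.3, against 4.41 and 5.11 (difference 11.4, adjusted p = 0.00802), a call lost without C replicate 1 (11.0, adjusted p = 0.0725) or 5mC replicate 2 (8.18, 0.123). Of the 404 with GTAA, 4 rose and 3 fell.

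CREB1 with 5mC, a single array, had 0 that rose and 5 that fell against C, 0.0793% beside 0.826% of all 8-mers (0.414% rose and 0.412% fell), and the count was 1 or 0 without CREB1 C replicate 1 or 2. The largest fall was in aaattgat, at 0.199 with 5mC, against 3.99 and 3.88 with C (difference -3.73, adjusted p = 0.0237, and 0.0845 or 0.117 without CREB1 C replicate 1 or 2). The whole set shifted down slightly, with a median difference of -0.37, against -0.08 over all 8-mers. CREB1(A297V) with 5mC had 2 that fell, taaaatgt (-2.72, adjusted p = 0.0456) and tgtggata (-2.86, adjusted p = 0.0496), 0.0317% beside 0.0336% of all 8-mers (0.0198% rose and 0.0137% fell). The count was 0 without either CREB1(A297V) C array or without 5mC replicate 2, and 0 among run 470 alone.

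CREB1(A297V) with 5hmC had few calls against C. Of the C-free 8-mers 6 rose and 18 fell, 0.381% beside 0.343% of all 8-mers (0.146% rose and 0.197% fell). The count was 0 and 2 without CREB1(A297V) C replicate 1 and 2, 383 without 5hmC replicate 1, and 22, 16 and 11 without 5hmC replicates 2, 3 and 4. Within run 470, with 5hmC replicates 1 and 2, it was 0. Among called sequences, gtttttgt rose by 2.05, at 0.346, 0.782, 1.01 and 1.27 with 5hmC, against -0.668 and -1.73 with C, and gaagggag gave 0.456, -0.773, -0.112 and -1.62, against 2.48 and 2.08 (difference -2.79, adjusted p = 0.0359). Larger differences were not called, such as 6.66 for ttatGTAA (SE 16.6, adjusted p = 0.889), whose 5hmC and C arrays did not overlap. Of the 404 sequences with GTAA, 1 fell.

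Compared with CREB1 on C arrays, the mutants had few called differences among C-free 8-mers. CREB1(A297V) was higher in 13 and lower in 1, 0.222% beside 1.53% of all 8-mers (0.108% higher and 1.42% lower), and 10 of the 14 held GTAA, all of them higher. The count of GTAA was 3, 0, 3 and 0 without CREB1 C replicate 1, CREB1 C replicate 2, CREB1(A297V) C replicate 1 and CREB1(A297V) C replicate 2, and the count in all was 9, 0, 6 and 1. tgtGTAAt gave 15.9 and 16.8 with CREB1(A297V), against 3.3 and 3.65 with CREB1 (difference 12.8, adjusted p = 0.0218), a call lost on leaving out any 1 of the 4 arrays, at differences of 12.4 to 13.3. The median difference of the 404 was 1.11. CEBPB(V285A) was higher than CREB1 in 11 and lower in 4, 0.238% beside 0.926% of all 8-mers (0.888% higher and 0.0381% lower), and the count was 1, 3, 2 and 8 without CREB1 C replicate 1, CREB1 C replicate 2, CEBPB(V285A) C replicate 1 and CEBPB(V285A) C replicate 2. The difference was 24.9 for tgatGTAA (adjusted p = 0.00603, and 0.0992 without CREB1 C replicate 1) and 5.72 for ttgaGTAA (adjusted p = 0.00451, and 0.0632 or 0.0656 without CREB1 C replicate 1 or CEBPB(V285A) C replicate 1).

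With 5hmC, the direction of the calls between the mutants and CREB1 differed by motif. TGATG and the A-and-G-only sequences were chosen after the CREB1 5hmC values were seen, so their counts against CREB1 are a description. Between CREB1(A297V) and CREB1, 353 were higher in the mutant and 457 lower, 12.8% beside 8.77% of all 8-mers (2.54% higher and 6.22% lower). The count was 194 or 177 without CREB1 5hmC replicate 1 or 2, 863, 592, 708 and 1326 without CREB1(A297V) 5hmC replicates 1 to 4, and 189 with run as a random block. Of the 107 with TGATG, 84 were lower in CREB1(A297V) and 0 higher (median difference -5.43), with 72 to 85 lower on leaving out any array and 73 with the run block. aTGATGat gave 1.16, 0.054, -1.01 and 0.0355 with CREB1(A297V), against 19.1 and 22.3 with CREB1 (difference -20.6, SE 0.968, adjusted p = 8.9e-08). Of the 404 with GTAA, 38 were higher and 5 lower, or 2 and 1 without CREB1 5hmC replicate 1, 3 and 2 without replicate 2, 83 and 6 without CREB1(A297V) 5hmC replicate 4, and 4 and 1 with the run block. Both directions together, the 38 and 5 were a smaller share than the 12.8% of C-free 8-mers called, and most were higher. Of the 255 of A and G only, 89 were higher in CREB1(A297V) and 0 lower, or 10 and 6 higher without CREB1 5hmC replicate 1 and 2 and 13 with the run block. atgtGTAA gave 14.6, 20.2, 16.6 and 14.8, against 4.8 and 3.81 (difference 12.3, SE 1.93, adjusted p = 0.00156), and ttagGTAA gave 11.7 more in CREB1(A297V) (adjusted p = 0.0203, and 0.16 or 0.165 without CREB1 5hmC replicate 1 or 2). tgatGTAA was lower in CREB1(A297V) (difference -18.4, adjusted p = 0.00502), or -16.1 (adjusted p = 0.0878) without CREB1 5hmC replicate 1, and 1.69 with a background-corrected Z-score.

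CEBPB(V285A) with 5hmC was higher than CREB1 with 5hmC in 284 and lower in 138, 6.69% beside 3.99% of all 8-mers (1.85% higher and 2.14% lower). The count was 171 or 157 without CREB1 5hmC replicate 1 or 2 and 291 or 312 without CEBPB(V285A) 5hmC replicate 1 or 2. GTAA and TGATG lay on opposite sides: 70 of 404 with GTAA were higher and 1 lower, and 60 of 107 with TGATG were lower and 1 higher. TGATG was chosen with the CREB1 5hmC values seen, so its side here is a description. Without CREB1 5hmC replicate 1 or 2 the 70 became 29 or 26, and without CEBPB(V285A) 5hmC replicate 1 they became 40. The 60 were 48, 42, 56 and 51 on leaving out the same 4 arrays, but 4 on an inverse hyperbolic sine scale and 6 with a background-corrected Z-score. gatGTAAt gave 42.1 and 38.5 with CEBPB(V285A), against 8.89 and 9.57 with CREB1 (difference 31.1, SE 2.09, adjusted p = 4.6e-06). aTGATGat gave 5.01 and 3.81, against 19.1 and 22.3 (difference -16.3, SE 1.12, adjusted p = 4.6e-06), and gtgTGATG gave 2.91 and 3.08, against 13.1 and 13.4 (difference -10.2, SE 1.03, adjusted p = 7.31e-05). Each of these 3 had groups that did not overlap, which was a condition for naming them and is not separate support.

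The wild-type CEBPB was measured with 5hmC, and CEBPB(V285A) was higher than it in 271 C-free 8-mers and lower in 55, 5.17% beside 2.6% of all 8-mers (1.92% higher and 0.687% lower). The count was 118 or 109 without CEBPB 5hmC replicate 1 or 2 and 206 or 267 without CEBPB(V285A) 5hmC replicate 1 or 2. Of the 404 with GTAA, 71 were higher and 1 lower, and the 71 were 26, 28, 36 and 72 on leaving out those 4 arrays in turn. The difference was 147.0 for ttatGTAA, 40.6 for tgatGTAA and 16.1 for ttgtGTAA (adjusted p = 0.000894, 9.32e-05 and 0.000748). tgatGTAA gave 49.8 and 38.5 with the mutant, against 2.7 and 4.42 with CEBPB. The highest C-free 8-mer of CEBPB, ttgtgaaa, which holds the C-less TTGT side without GTAA, gave 6.94 and 4.58 with the mutant, against 11.6 and 20.0 with CEBPB (difference -10.0, adjusted p = 0.0122), a call lost without CEBPB 5hmC replicate 2 (-5.79, adjusted p = 0.0559) or CEBPB(V285A) 5hmC replicate 2 (-8.86, 0.0818).

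Each C-free 8-mer was then set against its reverse complement on the same array, which holds the same base pairs with the cytosines on the modified strand. This was possible for 6174 of the 6305, since 131 reverse complements had no probe. The strand difference is the Z-score of the C-free orientation minus that of the other, and its change between forms of cytosine was tested over all 32230 pairs. Outside these 6174 the orientation of a pair is arbitrary, so the share of all pairs is given without direction. In CREB1 with 5hmC, 608 strand differences were higher than with C and 703 lower, 21.2% beside 16.0% of all pairs. The count was 379 or 611 without CREB1 C replicate 1 or 2 and 374 or 433 without CREB1 5hmC replicate 1 or 2.

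The TGATG pairs carried the clearest strand difference. They were chosen after the CREB1 5hmC values were seen, which favours a high C-free orientation there, so this is a description. On CREB1 5hmC arrays the C-free orientation was the higher in 105 of 106 pairs on both arrays (99.1%), with a median difference of 5.54, against 43 of 106 (40.6%) and a median of 0.05 with CREB1 C. The change was called in 82 pairs, upward in each, with a median of 5.63, and in 63 to 66 on leaving out an array. Most of that change lay in the C-free orientation: its median difference between 5hmC and C was 4.7, against -1.05 for the reverse complements, of which 19 fell and 0 rose. The change was 26.6 for gTGATGta (SE 2.96, adjusted p = 1.18e-06, and 17.5 without CREB1 5hmC replicate 2), 17.8 for taTGATGt (SE 1.38, adjusted p = 5.15e-09) and 25.2 for tgatGTAA (SE 4.42, adjusted p = 0.000497). TTACatca, the reverse complement of tgatGTAA, gave 0.531 and 0.568 with CREB1 5hmC, against 4.91 and 3.95 with C. In other groups the C-free orientation of TGATG pairs was the higher on every array in 77.4% for CEBPB(V285A) 5hmC (median 2.02) and 72.6% for CEBPB 5hmC (1.21). With 5mC it was 76.4% on the single CREB1 array (0.92) and 65.1% for CEBPB(V285A) (0.84). For CREB1(A297V) it was 17.9% over 4 arrays with 5hmC, 35.8% with 5mC and 42.5% with C, and for CEBPB(V285A) C 36.8%. In CREB1 the 233 purine-only pairs moved in the direction opposite to TGATG, with a median strand difference of -0.85 with 5hmC, against 2.29 with C. Of these, 148 changes were lower and 0 higher, or 64, 105, 67 and 80 lower without CREB1 C replicate 1, C replicate 2, 5hmC replicate 1 and 5hmC replicate 2. The low purine-only strand difference was not particular to CREB1. On the CEBPB 5hmC arrays, which have no C arrays to compare, its median was -0.99. There the reverse complement was the higher on both arrays in 168 pairs and the C-free orientation in 15. The purine-only pairs called in the mutants with 5hmC against C also moved downward. With CREB1(A297V) 5hmC against C, 23 were lower and 0 higher (9.87%, beside 0.953% of all pairs, median change -1.8), or 102 lower without 5hmC replicate 1, 12 without 5hmC replicate 4, 0 and 1 without C replicate 1 and 2, and 0 in run 470 alone. With CEBPB(V285A), 6 were lower and 0 higher (2.58%, beside 3.3% of all pairs, median change -1.37), or 0 on leaving out any 1 of the 4 arrays.

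In CEBPB(V285A) the strand difference changed with 5hmC in 200 pairs upward and 44 downward, 3.95% beside 3.3% of all pairs. The count was 77, 97, 161 and 141 without CEBPB(V285A) C replicate 1, C replicate 2, 5hmC replicate 1 and 5hmC replicate 2. Of 401 GTAA pairs 50 changed upward and 0 downward, which became 25, 28, 26 and 46 on leaving out the same arrays. Of 106 TGATG pairs 30 changed upward and 0 downward (median change 2.15), a larger share (28.3%) than among GTAA pairs (12.5%). ttatGTAA changed sides: the strand difference was 115.3 with 5hmC, against -26.3 with C, a change of 141.5 (SE 16.0, adjusted p = 3.42e-06). Its reverse complement TTACataa gave 49.5 and 36.7 with 5hmC, 22.9 and 38.7 with 5mC, and 69.5 and 59.7 with C. tgatGTAA likewise had 38.6 with 5hmC, against -8.3 with C (change 46.9, SE 4.42, adjusted p = 2.17e-07), and ttgtGTAA had 14.8, against -5.92 (change 20.7, SE 3.17, adjusted p = 0.000193).

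ttgtGTAA also changed with 5mC, in the opposite direction. The strand difference was -39.9 with CEBPB(V285A) 5mC, against -5.92 with C (change -34.0, SE 3.17, adjusted p = 1.35e-08). The C-free orientation barely moved, at 6.45 and 9.02 with 5mC, against 6.34 and 6.36 with C, while TTACacaa gave 43.2 and 52.2, against 12.9 and 11.7. In all, 46 pairs changed upward and 79 downward with 5mC in CEBPB(V285A), 2.02% beside 4.94%, or 57, 70, 98 and 67 pairs without C replicate 1, C replicate 2, 5mC replicate 1 and 5mC replicate 2. Between 5hmC and 5mC, 237 pairs changed upward and 80 downward (5.13%, beside 5.66%), or 168, 148, 211 and 211 pairs without 5mC replicate 1, 5mC replicate 2, 5hmC replicate 1 and 5hmC replicate 2. There the change was 54.7 for ttgtGTAA (adjusted p = 1.61e-12), 32.9 for tgatGTAA and 110.9 for ttatGTAA, the last 70.5 without CEBPB(V285A) 5hmC replicate 1.

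The other strand comparisons held fewer calls. CREB1(A297V) with 5hmC had 28 pairs upward and 77 downward, 1.7% beside 0.953%, and the count was 3 and 2 without C replicate 1 and 2, 781, 126, 94 and 53 without 5hmC replicates 1 to 4, and 8 in run 470 alone. ttagGTAA changed by 16.3 (adjusted p = 0.00707), lost without CREB1(A297V) C replicate 1 (16.9, adjusted p = 0.137) or 2 (15.7, 0.136). Its reverse complement TTACctaa gave 4.19, 3.5, 4.89 and 3.09 with 5hmC, against 13.8 and 17.2 with C. CREB1 with 5mC had 3 pairs upward and 1 downward, 0.0648% beside 0.614%. CREB1(A297V) with 5mC had 0 called by limma, beside 0.00621%, with 766 pairs at an unadjusted p under 0.05.

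Whether an effect of the modified base differed between proteins was tested in the same fit. For 5hmC against C, the effect was higher in CEBPB(V285A) than in CREB1 for 74 C-free 8-mers and lower for 71, 2.3% beside 1.98% of all 8-mers (0.354% higher and 1.63% lower). Of the 71, 42 held TGATG, and of the 74, 18 held GTAA. It was higher in CREB1(A297V) than in CREB1 for 1 and lower for 82, 1.32% beside 0.711% (0.191% higher and 0.52% lower), and 56 of the 82 held TGATG. It was higher in CEBPB(V285A) than in CREB1(A297V) for 109 and lower for 2, 1.76% beside 2.17% (0.472% higher and 1.7% lower), and 33 of the 109 held GTAA. TGATG was chosen after the CREB1 5hmC values were seen, so the counts of TGATG against CREB1 are a description. The first count, 145 in all, was 56 without CREB1 C replicate 1, 63 and 95 without CEBPB(V285A) C replicate 1 and 2, and 83 and 60 without CREB1 5hmC replicate 1 and 2. The second, 83 in all, was 53 and 43 without replicate 1 and 2 of CREB1 C, 50 and 44 without replicate 1 and 2 of CREB1(A297V) C, 51 without CREB1 5hmC replicate 2 and 142 without CREB1(A297V) 5hmC replicate 4. The last, 111 in all, was 51 and 58 without replicate 1 and 2 of CEBPB(V285A) C, 49 and 63 without replicate 1 and 2 of CREB1(A297V) C, and 69 without CEBPB(V285A) 5hmC replicate 1. On an inverse hyperbolic sine scale these counts were 0, 4 and 0, and with a background-corrected Z-score 0, 0 and 7, so most or all of these calls were lost there. For 5mC against C, 3 effects were higher in CEBPB(V285A) than in CREB1 and 0 lower, 0.0476% beside 0.986% (0.737% higher and 0.249% lower), with 0 to 6 called on leaving out an array, 0 of them without CREB1 C replicate 1. Between CEBPB(V285A) and CREB1(A297V), 28 were higher and 2 lower, 0.476% beside 3.49% (1.58% higher and 1.91% lower). That count of 30 was 10 and 13 without CEBPB(V285A) C replicate 1 and 2, 19 without CREB1(A297V) C replicate 2, 18 without CEBPB(V285A) 5mC replicate 2 and 17 without CREB1(A297V) 5mC replicate 1. Between CREB1(A297V) and CREB1, limma called 0, beside 0.146% (0.0732% higher and 0.0732% lower), with 250 at an unadjusted p under 0.05.

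The base next to a C-free motif can itself be a modified cytosine. Probes with C just 5′ of a GTAA-starting 8-mer numbered 343 and those with another base there 1043, and the median log2 probe intensity of the first minus the second was taken per array. It was 0.02 for CEBPB(V285A) with 5hmC, 0.31 with 5mC and 0.46 with C, at 0.46 and 0.47 on the C arrays. For CREB1 it was -0.01 with 5hmC, 0.2 with 5mC and 0.23 with C, at 0.17 and 0.28 on the C arrays. For CREB1(A297V) it was -0.07 with 5hmC, 0.28 with 5mC (0.16 and 0.39) and -0.0 with C (-0.04 and 0.04), and for CEBPB 5hmC it was -0.06. After TGATG, 107 probes had C and 343 another base. That difference was 0.27 for CREB1 5hmC, at 0.17 and 0.36, and 0.13 for CREB1 C, at 0.05 and 0.2, ranges that overlapped. Whether other cytosines of a probe contributed to the Z-score of the C-free 8-mers it carried was not tested.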

How the data were processed

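Per the labels, GST-tagged domains were bound to arrays and read in Cy5. The deposited matrix holds the authors' Z-scores, a score per 8-mer and array, and how they were computed is not given in the sources used here. The deposited signal files hold, per the file headers, median spot and background intensity. Names in the matrix were complemented base by base to give the synthesised strand, the reading that fitted probe intensity best on 21 of 21 arrays (r 0.579 to 0.869, against at most 0.596 otherwise). That the printed strand is the unmodified template was assumed.

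From the Z-scores, 21 arrays in 10 groups were fitted together in limma 3.58.1 (R 4.3.3) with a mean-variance trend and 11 residual degrees of freedom. Tests were two-sided, with Benjamini-Hochberg adjustment over 65535 8-mers or 32230 strand pairs. No 8-mer was left out, and 409 had no probe. The labels do not say that replicates came from separate protein preparations, so p-values measure the spread between arrays, which may be technical. The number of arrays limits the precision. Flanks used log2 of the deposited probe intensity minus the array median. Alternatives were an inverse hyperbolic sine scale, quantile normalization, a Z-score recomputed from intensity with and without normexp (offset 50), at least 8 probes, replicate and run blocks, and leaving out each array. The fits were tested on simulated data.

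Named 8-mers are the 9 GTAA sites listed, the 3 highest members of each group, and, for each comparison, called members without overlap between the groups: up to 4 that rose most and up to 4 that fell most. Near copies, with 7 bases in a row shared with an earlier choice, were passed over in the last 2 sets. The members and lists were chosen with earlier results of these data known, and TGATG and A-and-G-only sequences after their values were seen.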

Additional observations from a re-analysis of the deposited data

Results flagged for a closer look

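Effects of the modified base that differed between proteins are set out here, as 6 differences computed in limma. For 5hmC against C, 145 C-free 8-mers differed between CEBPB(V285A) and CREB1. ttgtGTAA had an effect 18.1 higher in CEBPB(V285A) than in CREB1 (adjusted p = 0.00464 in limma), and ttaaGTAA 6.4 higher (adjusted p = 0.0492). The call of ttaaGTAA was lost on leaving out any 1 of the 8 arrays except CEBPB(V285A) 5hmC replicate 1, at values of 5.2 (without CEBPB(V285A) 5hmC replicate 2) to 7.04 (replicate 2 of CEBPB(V285A) C left out). For ttatGTAA the difference was 111.8 and was not called (adjusted p = 0.0525). Between CREB1(A297V) and CREB1, 83 effects differed.

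Between CEBPB(V285A) and CREB1(A297V), 111 effects of 5hmC differed. ttatGTAA had an effect 113.4 higher in CEBPB(V285A) (adjusted p = 0.0316) and ttgtGTAA 19.5 higher (adjusted p = 0.00121). The call of ttatGTAA was lost on leaving out any 1 of the CEBPB(V285A) C, CREB1(A297V) C or CREB1(A297V) 5hmC arrays, at values of 110.0 to 116.7. It was kept without CEBPB(V285A) 5hmC replicate 1 (66.6, adjusted p = 0.000378) and without CEBPB(V285A) 5hmC replicate 2. The calls of ttgtGTAA were kept on leaving out any 1 array. They were lost on an inverse hyperbolic sine scale, as were all C-free calls of 5hmC effects differing between CEBPB(V285A) and CREB1 or CREB1(A297V). The ttgtGTAA call between CEBPB(V285A) and CREB1 was also lost with a background-corrected Z-score. For 5mC against C, 3 effects differed between CEBPB(V285A) and CREB1 and 30 between CEBPB(V285A) and CREB1(A297V). The run of the arrays differed between most of these groups and cannot be told apart from them. Among the 4 CREB1(A297V) 5hmC arrays, 24 tests for an array far from the others found none. With 4 arrays such tests can find only an extreme array, so this does not show that the arrays were alike. Leaving out replicate 1 raised the calls of this group against C to 383.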

How the results depend on the processing

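Counts are of C-free 8-mers called by limma, and each gives the value under an alternative after the value as reported. For CREB1 with 5mC against C (5), the count was 0 on an inverse hyperbolic sine (asinh) scale, 1 with a recomputed Z-score, 2 after normexp, 1 with the arrays of 1 run and 1 with run as a block. For CEBPB(V285A) with 5mC against C (78), it was 28 with asinh, 23 with quantile normalization, 35 recomputed and 28 after normexp. For CEBPB(V285A) with 5hmC against C (397), it was 201, 190 and 185 with asinh, quantile and normexp, and against 5mC (380) 171, 170 and 127 with these and 630 recomputed. For CREB1(A297V) with 5mC against C (2), it was 0 with asinh, recomputed, after normexp, in 1 run and with run as a block, 13 with quantile normalization and 1 with at least 8 probes. With 5hmC against C (24), it was 54 with asinh, 55 with quantile normalization, 1 recomputed, and 0 in 1 run and with run as a block. Where the count was 0, between 410 and 718 were at an unadjusted p under 0.05.

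Between proteins, CEBPB(V285A) against CREB1 with C (15) gave 0 with quantile normalization, 8 recomputed and 0 after normexp, and with 5hmC (422) it gave 164, 260 and 126 with asinh, quantile and normexp. CEBPB(V285A) against CEBPB with 5hmC (326) gave 164 with asinh and 129 after normexp. CREB1(A297V) against CREB1 with C (14) gave 45 with asinh, 30 recomputed, 6 after normexp, and 0 in 1 run and with run as a block. With 5hmC (810) it gave 1564 recomputed and 189 with run as a random block. On leaving out an array the counts of these 12 comparisons ranged as follows: CREB1 5mC 0 to 1, CREB1 5hmC 210 to 304, CEBPB(V285A) 5mC 27 to 54, CEBPB(V285A) 5hmC 123 to 357 against C and 173 to 321 against 5mC, CREB1(A297V) 5mC 0 to 2, CREB1(A297V) 5hmC 0 to 383, CEBPB(V285A) against CREB1 1 to 8 with C and 157 to 312 with 5hmC, CEBPB(V285A) against CEBPB 109 to 267, and CREB1(A297V) against CREB1 0 to 9 with C and 177 to 1326 with 5hmC.

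For strand pairs, CEBPB(V285A) with 5mC (125) gave 27 with asinh and 59 recomputed, CEBPB(V285A) with 5hmC 70 with asinh against C (244) and 66 against 5mC (317), CREB1(A297V) with 5hmC (105) 4 recomputed and 8 in 1 run, CREB1(A297V) with 5mC (0) 3 recomputed, and CREB1 with 5mC (4) 1 with at least 8 probes on both 8-mers. On leaving out an array the ranges were 374 to 611 for CREB1 5hmC, 3 to 4 for CREB1 5mC, 57 to 98 for CEBPB(V285A) 5mC, 77 to 161 and 148 to 211 for CEBPB(V285A) 5hmC against C and 5mC, 2 to 781 for CREB1(A297V) 5hmC and 0 to 0 for CREB1(A297V) 5mC. For effects that differ with 5hmC, CEBPB(V285A) and CREB1 (145) gave 0, 66 and 0 with asinh, quantile and normexp, CREB1(A297V) and CREB1 (83) 4 with asinh and 0 after normexp, and CEBPB(V285A) and CREB1(A297V) (111) 0, 42 and 7 with asinh, quantile and normexp. Leaving out an array gave 56 to 151, 43 to 142 and 49 to 163. With 5mC, CEBPB(V285A) and CREB1 (3) gave 0 with asinh, quantile, recomputed and normexp, CREB1(A297V) and CREB1 (0) gave 1 with quantile normalization, and CEBPB(V285A) and CREB1(A297V) (30) gave 1, 16, 9 and 7 with asinh, quantile, recomputed and normexp. Leaving out an array gave 0 to 6, 0 to 0 and 10 to 32. The base before GTAA, after normexp, gave a log2 difference of 0.44 for CREB1 C, 0.77 for CEBPB(V285A) C, 0.55 for CREB1 5mC, 0.45 for CEBPB(V285A) 5mC, 0.56 for CREB1(A297V) 5mC, -0.16 for CEBPB 5hmC and -0.03 for CREB1 5hmC.

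The labels number the replicates alike across groups, but nothing shows that the numbers pair the arrays: deviations of same-numbered arrays correlated at -0.381 to 0.19. With a replicate block the counts were 11 for CREB1 5mC, 1566 for CREB1 5hmC, 124 for CEBPB(V285A) 5mC, 659 and 652 for CEBPB(V285A) 5hmC against C and 5mC, 4 for CREB1(A297V) 5mC, 35 for CEBPB(V285A) against CREB1 with C, 495 for CEBPB(V285A) against CEBPB, and 26 and 1702 for CREB1(A297V) against CREB1 with C and 5hmC. For strand pairs the replicate block gave 13 for CREB1 5mC, 2037 for CREB1 5hmC, 216 for CEBPB(V285A) 5mC, 524 and 673 for CEBPB(V285A) 5hmC against C and 5mC, and 27 for CREB1(A297V) 5mC. For effects that differ it gave 9 and 64 for CEBPB(V285A) against CREB1 and against CREB1(A297V) with 5mC, and 253, 239 and 193 with 5hmC in the order given above.

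For single 8-mers, 4 differences changed sign: taTGATGt in CEBPB(V285A) against CREB1 with 5hmC was 0.218 after normexp, against -9.61, tgatGTAA in CREB1(A297V) against CREB1 with 5hmC was 1.69 after normexp, against -18.4, and with quantile normalization ttgaGTAA and GTAAtaat in CEBPB(V285A) against CEBPB with 5hmC, not called as reported, were -12.1 and -14.6, against 0.781 and 7.02. The cause was not tested. Signal over background limits CREB1(A297V) 5hmC most, where replicate 2 had 56.06% of probes not above background.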
